A study of Mus musculus with 6 samples.

Results

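The regions described here are 9 genomic windows on mouse chromosomes 2, 6, 9, 10, 12, 15 and 17 that are labelled as pachytene-type piRNA cluster loci. Their members are all deposited counting intervals that lie wholly inside the windows, 1277 of 1272548 intervals, of which 1038 had a read in some library. Because these intervals overlap, sums were taken over 81 non-overlapping member intervals, out of 88351 such intervals with a read in the whole series. The windows were chosen from earlier results of the same data, in which levels at P8 differed between the genotypes. The P8 difference between genotypes is therefore given as a description. Calls from a fit of that contrast appear only as counts beside those over all intervals, and support nothing here.

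Small RNA of 15 to 36 nt was sequenced from the testicular germ cells of wild-type (WT) and Dnmt3l knockout (KO) mice, both C57BL/6. Both P0 libraries, 1 WT and 1 KO, came from enriched neonatal germ cells, and the P8 libraries, 2 WT and 2 KO, from THY1+ cells, a preparation rich in spermatogonial stem cells and progenitors. P0 and P8 are postnatal days 0 and 8, and age therefore goes together with the way the cells were prepared. All 6 libraries carry 1 batch label, and it is not stated whether the replicates came from separate animals, so the spread between them may be technical.

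piRNAs are small RNAs of the animal germline that are bound by PIWI proteins and are cut from long single-stranded transcripts of genomic clusters. In the mouse testis, pachytene clusters are the large intergenic loci whose piRNAs accumulate when spermatocytes enter the pachytene stage of meiosis, and many of them are transcribed under the transcription factor A-MYB. At P8 the testis does not yet hold pachytene spermatocytes. Pre-pachytene piRNAs, by contrast, are made in fetal and neonatal germ cells and often come from transposons and from genes. DNMT3L is the partner without catalytic activity of the de novo DNA methyltransferases in the male germline. The deposited counts carry neither read length, strand nor sequence, and no cluster or gene names. The windows are therefore called by position, and whether their reads have the features of piRNAs was not tested. Nor could the cell type be checked against marker genes.

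Dnmt3l itself could not be checked in these counts, which cover small RNA intervals and not its transcript. Coordinates are on GRCm39, counted from 1, and since no GRCm39 genome or annotation was used here, no gene, exon or sequence is given for them. The windows were chr2:92.35-92.48 Mb, chr6:127.70-127.90 Mb, chr9:67.50-67.75 Mb, chr10:69.90-70.05 Mb and chr12:98.30-98.50 Mb. Chromosome 15 held a proximal window at 59.10-59.20 Mb and a distal one at 74.45-74.60 Mb, and chromosome 17 a proximal window at 27.45-27.65 Mb and a distal one at 66.50-66.60 Mb. The non-overlapping members numbered 3 to 17 per window and measured 162 to 53999 bp, with a median of 2703 bp against 2113 bp over all non-overlapping intervals. Another 54 deposited intervals crossed a window's edge and were not members. Those of them in the non-overlapping set, 7 intervals, had at most 103 reads in any library. The libraries had 4370403 to 6119823 reads in the non-overlapping set. Besides the interval with most reads in each window and the 3 lowest and 3 highest P8 fold changes, the intervals named were picked after their values were seen. These fold changes were ranked among members with a mean of at least 10 CPM at P8. Levels are given as CPM, reads per 1000000 scaled by edgeR's TMM (trimmed mean of M-values).

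Small RNAs from the 9 windows together were scarce at P0 in both genotypes, abundant in WT at P8, and scarce in KO at P8. The summed level was 401 and 324 CPM in WT and KO P0. It was 10688 and 11606 CPM in the 2 WT P8 libraries and 613 and 622 CPM in the 2 KO P8 libraries. The WT P8 libraries stood far above the other 4, and the KO P8 libraries stood nearer to the P0 libraries than to WT P8. Fewer cells that make these RNAs and less of them per cell cannot be told apart in such samples. As a share of all reads in the non-overlapping set, the windows held 0.907% and 0.991% in WT P8, 0.0502% and 0.0514% in KO P8, 0.0576% in WT P0 and 0.0430% in KO P0. At P8 the WT mean of 11147 ± 649 CPM was 18.1-fold above the KO mean of 617 ± 6.20 CPM (SD, n = 2 each). The proximal chromosome 17 locus weighed heavily in this sum, and without it the difference was 7.28-fold, from 3548 ± 313 to 488 ± 1.59 CPM.

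**Figure D1:**
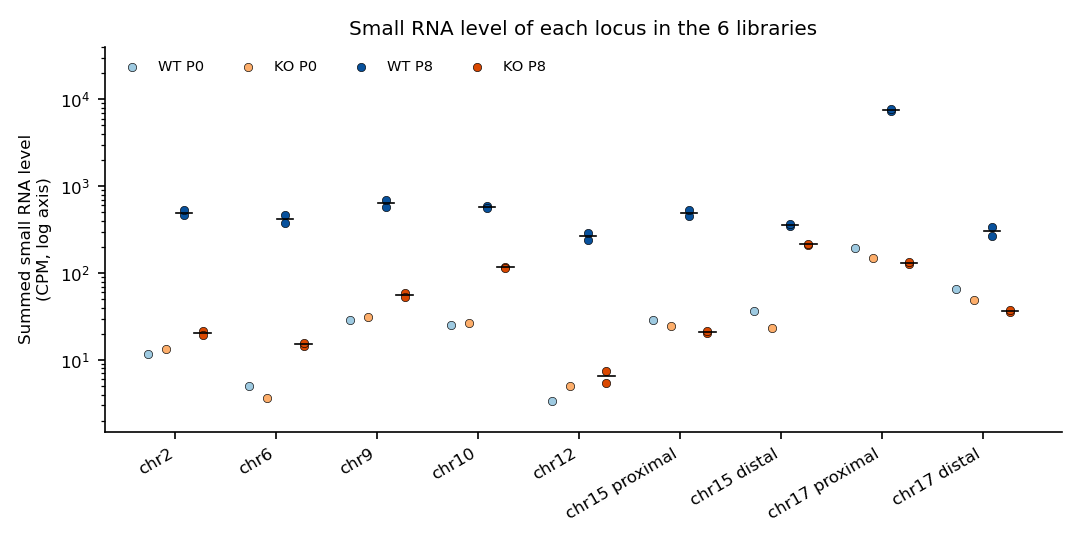
Summed CPM (log axis) of the non-overlapping members of each window. Each point is 1 library, and bars mark the mean of the 2 libraries of each P8 group. In all 9 windows both WT P8 points lie above both KO P8 points, by 58.5-fold on average at the proximal chromosome 17 locus and by 1.66-fold at the distal chromosome 15 locus.

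Every one of the 9 loci was lower in both KO P8 libraries than in both WT P8 libraries, but the sizes differed widely. The ratio of WT to KO was 58.5 at the proximal chromosome 17 locus, 41.0 on chromosome 12, 28.0 on chromosome 6, 24.2 on chromosome 2 and 23.3 at the proximal chromosome 15 locus. It was 11.3 on chromosome 9, 8.31 at the distal chromosome 17 locus, 4.93 on chromosome 10 and 1.66 at the distal chromosome 15 locus. The 95% counting intervals of neighbours in this order overlapped from chromosome 12 to proximal chromosome 15, where they were 31.1 to 54.9, 23.3 to 33.7, 20.7 to 28.4 and 19.9 to 27.2. Those of the 4 loci with the smallest ratios did not overlap, at 10.2 to 12.4, 7.33 to 9.35, 4.60 to 5.29 and 1.57 to 1.76. These intervals take in counting error alone, because the reads of the 2 libraries in each group were pooled and the spread between libraries was left out. Nor do they allow for reads that are copies of 1 molecule, which cannot be told without molecular identifiers. Differences between loci were not tested.

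Interval by interval, both KO P8 libraries were below both WT P8 libraries in 56 of the 81 members, against 18.0% of all non-overlapping intervals. They were above both in 5 members, against 18.3%, and the libraries overlapped in 20. Of the 35 members with at least 10 CPM in WT P8, 33 were below. The 2 others both lay at the distal chromosome 15 locus. A cut on the WT P8 level itself favours members with KO below WT, and no share over all intervals is given at this cut. In edgeR's quasi-likelihood fit over all 23200 intervals with enough reads, 47 members passed the filter, of which 41 were called lower (20.1% of all tested intervals) and 2 higher (22.5%). Since the windows were chosen on this contrast, nothing is read from these counts.

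The proximal chromosome 17 locus had the highest summed level of the 9 at P0 and in WT P8, while in KO P8 the distal chromosome 15 locus was higher. Its sum was 7360 and 7837 CPM in the WT P8 libraries, 127 and 133 CPM in the KO P8 libraries, 195 and 148 CPM in WT and KO P0. The KO P8 libraries were thus below both P0 libraries. Per length, the locus had 117 CPM per kb of covered sequence in WT P8, where the other 8 had 5.24 to 18.1 CPM per kb. The interval with most reads, chr17:27536057-27557986, 21.9 kb, had 3920 and 4198 CPM in WT P8 against 76.6 and 79.0 CPM in KO P8, and 129 and 79.5 CPM in WT and KO P0. Both KO P8 values lay just below that of KO P0, while WT P8 was far above WT P0. The densest member of the 81 lay next to it, at chr17:27560631-27569424. It had 219 CPM per kb in WT P8 against 4.50 CPM per kb in KO P8, with 1884 and 1969 CPM in WT P8 against 36.3 and 42.8 CPM in KO P8.

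The ratio of WT to KO was larger in several intervals towards the ends of this locus than in its 2 long middle intervals, but not in all. The 162 bp interval chr17:27535065-27535226, before the middle ones, had a ratio of 23.0 (95% counting interval 7.57 to 113). Of the 3 lowest P8 log2 fold changes among members with a mean of at least 10 CPM at P8, 2 were here, at chr17:27581941-27583649 (-9.02) and chr17:27579186-27581142 (-7.55), and chr17:27512805-27525382 at the other end had -7.01. The interval chr17:27579186-27581142 had 169 and 175 CPM in WT P8 against 0.746 and 1.00 CPM in KO P8, and 0.683 and 0.172 CPM in WT and KO P0, a 197-fold difference at P8 (95% counting interval 95.3 to 490). The 2 long middle intervals were 52.2-fold (48.1 to 56.5) and 48.7-fold (43.6 to 54.6) lower. A member further out did not share the pattern. At chr17:27604804-27621297 there were 26.1 and 31.7 CPM in WT and KO P0, but 1.73 and 1.47 CPM in WT P8 against 0.746 and 1.00 CPM in KO P8, so that its reads came mainly from P0.

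Shorter deposited intervals nested inside the 21.9 kb interval show where its reads lay. A 1136 bp stretch at chr17:27547604-27548739 held 13.6% and 11.7% of its WT and KO reads at P0, but 3.46% in WT P8 and 0.801% in KO P8. Its level was 17.5 and 9.31 CPM in WT and KO P0, 142 and 139 CPM in WT P8, but 0.746 and 0.50 CPM (3 and 2 reads) in KO P8. In KO this stretch was thus lower at P8 than at P0, by 15.0-fold, while the whole interval was nearly level in CPM, at 0.978 times. That level depends on the scaling. For the whole locus the ratio of P8 to P0 in KO was 0.879 in CPM and 0.545 by total counts. A 1439 bp stretch at chr17:27537200-27538638 had the opposite pattern, since its share of the WT reads was 1.59% at P0 and 7.72% at P8.

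On chromosomes 12, 6 and 2 the WT P8 reads came mostly from a pair of intervals of similar level, separated by a stretch with few reads. On chromosome 12 the pair, chr12:98350869-98360785 and chr12:98400785-98409012, lay 40.0 kb apart, held 98.0% of the locus's WT P8 reads and differed 1.03-fold in WT P8. The former had 112 and 145 CPM in WT P8 against 3.23 and 5.50 CPM in KO P8. The latter had 123 and 141 CPM in WT P8 against 2.24 and 2.00 CPM in KO P8. At P0 neither exceeded 1.72 CPM in either genotype. In CPM the KO P8 values lay above those of P0 in both intervals, and both groups were far below WT P8. The ratio of P8 to P0 in KO was 5.06 in the former (counting interval 1.97 to 16.5). In the latter it was 1.23 (0.531 to 3.00), from 9 and 8 reads in KO P8 against 10 in each P0 library. The direction in the latter is therefore not settled. For the whole locus this ratio was 1.30 in CPM and 0.805 by total counts.

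On chromosome 6 the pair was chr6:127776721-127779141 and chr6:127799093-127809834, 19.95 kb apart, with 96.4% of the WT P8 reads of the locus. The levels were 181 and 205 CPM in WT P8 against 5.97 and 6.00 CPM in KO P8 in the first, and 184 and 245 CPM against 7.21 and 9.0 CPM in the second. With 0.455 CPM in WT P0 and 0 reads in KO P0 in the first, and 0.911 and 1.03 CPM in the second, the pair had almost no reads at P0. The whole locus had 44 and 21 reads in WT and KO P0, most of them outside the pair. In both intervals the KO P8 libraries lay above the P0 libraries and far below WT P8.

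On chromosome 2 the pair was chr2:92379811-92384614 and chr2:92424470-92432297, 39.9 kb apart. The former had 195 and 229 CPM in WT P8 against 1.99 and 5.00 CPM in KO P8, and 0.569 and 0.172 CPM in WT and KO P0. The latter had 160 and 186 CPM in WT P8 against 4.47 and 3.75 CPM in KO P8, and 6.15 and 5.86 CPM in WT and KO P0. A 319 bp interval between them, chr2:92408269-92408587, had 14.8 and 19.2 CPM in WT P8 and 0 reads in the other 4 libraries. WT P8 was 45.2-fold above an assumed floor of 3 reads over the KO P8 group, and the 95% counting interval of the ratio of WT to KO began at 36.4. The third of the lowest P8 log2 fold changes, -7.07, was at chr2:92375143-92375390, a 248 bp interval with 22.2 and 19.4 CPM in WT P8, and 1 and 0 reads in KO P8. The pair held 77.2% of the locus's reads in WT P8 but 37.0% in KO P8. The rest in KO came largely from chr2:92436729-92448174, with 14.7 and 9.0 CPM in KO P8 and 35.4 and 24.6 CPM in WT P8, where WT was 2.54-fold higher (95% counting interval 2.02 to 3.26).

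On chromosome 9 a single 7.01 kb interval, chr9:67623464-67630476, carried most of the WT P8 signal. It had 449 and 528 CPM in WT P8 against 6.21 and 7.0 CPM in KO P8, and 1.37 and 1.72 CPM in WT and KO P0, and WT exceeded KO at P8 73.9-fold. Short intervals before it, such as chr9:67615530-67616543 with 44.9 and 71.6 CPM in WT P8 against 1.49 and 1.75 CPM in KO P8, were also low in the other 4 libraries. The same window held long intervals without this pattern. At chr9:67693413-67719175, levels were 40.5 and 43.8 CPM in WT P8 against 37.0 and 31.3 CPM in KO P8, and 13.2 and 14.7 CPM in WT and KO P0. Its log2 fold change of -0.27 was among the 3 highest of members with a mean of at least 10 CPM at P8. At chr9:67518938-67541824 there were 6.94 and 6.11 CPM in WT P8 against 11.2 and 8.00 CPM in KO P8. These 2 intervals held most of the KO P8 reads of the window, where the summed ratio was 11.3.

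The proximal chromosome 15 locus had 1 main interval, chr15:59146592-59161622. Its levels were 343 and 400 CPM in WT P8 against 9.20 and 9.0 CPM in KO P8, and 16.6 and 16.2 CPM in WT and KO P0. The KO level at P8 was below the level at P0 in either genotype. Of the 8 members here, 7 were lower in both KO P8 libraries than in both WT P8 libraries, for example chr15:59134580-59137318, with 51.2 and 58.4 CPM in WT P8 against 1.49 and 2.00 CPM in KO P8.

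The distal chromosome 15 locus held intervals that were lower in KO and others that were higher. At chr15:74512551-74516001, a 3.45 kb interval, there were 236 and 261 CPM in WT P8 against 3.98 and 2.5 CPM in KO P8, with 0 reads at P0 in WT and 1 in KO. At a distance of 14.9 kb, chr15:74530894-74551536 had 86.3 and 70.4 CPM in WT P8 but 166 and 179 CPM in KO P8, with 7.51 and 6.38 CPM in WT and KO P0. Its log2 fold change of 1.16 was the highest among members with at least 10 CPM. The next highest, 0.71, was at chr15:74583062-74595875, with 24.7 and 23.6 CPM in WT P8 against 40.8 and 36.8 CPM in KO P8, and 27.3 and 15.5 CPM in WT and KO P0. The WT and KO libraries did not overlap at P8 in any of the 3. The summed ratio of the window, 1.66, was the smallest of the 9.

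**Figure D2:**
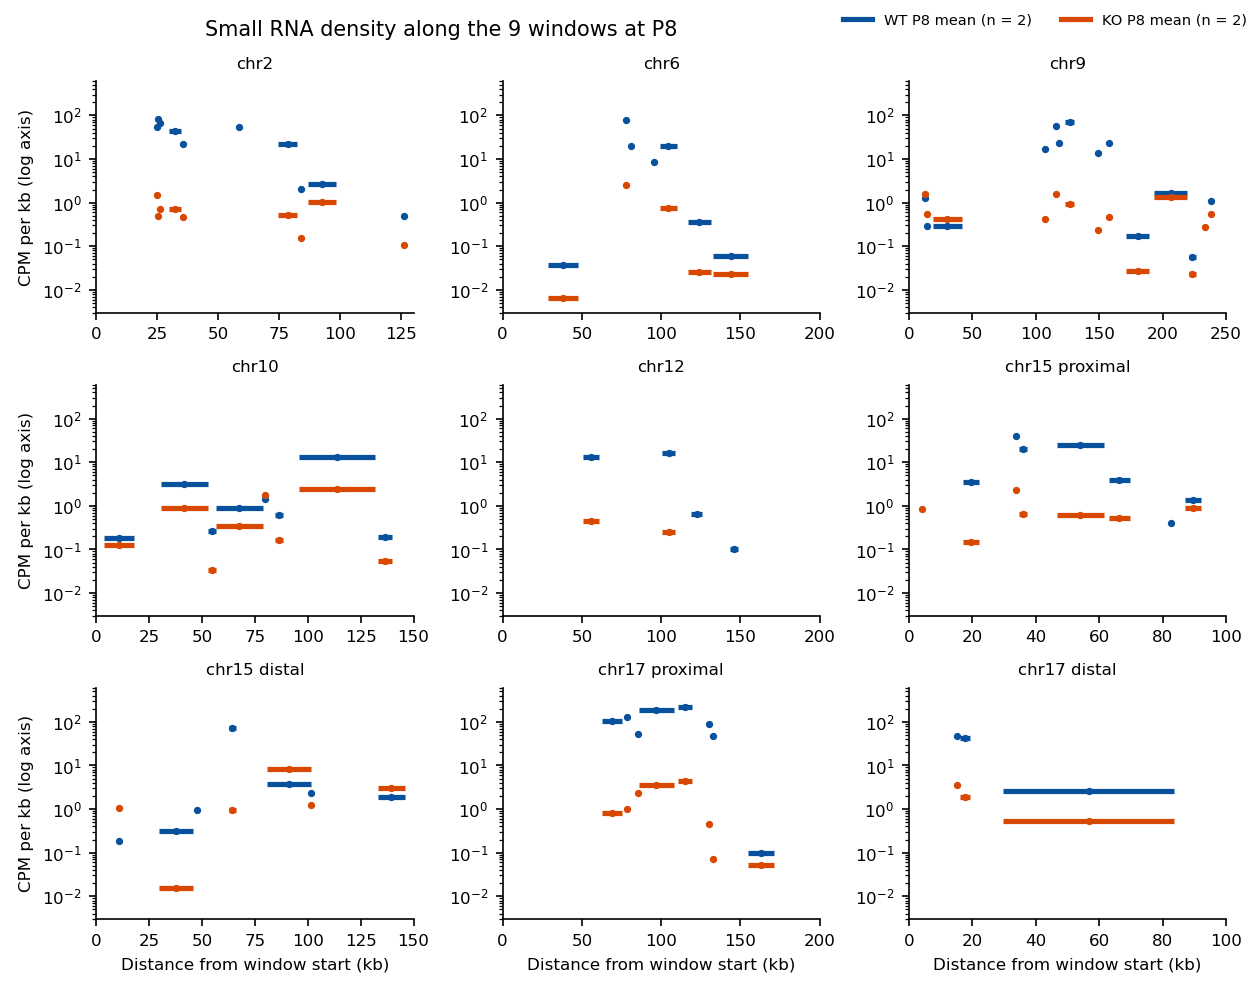
Small RNA density (mean CPM per kb, log axis, n = 2 per group) along the 9 windows at P8, against distance from the window start. Each bar spans 1 non-overlapping interval with a dot at its centre, and intervals without reads in a group are not drawn. On chromosome 12 and at the proximal chromosome 17 locus WT lies far above KO along the main intervals, while at the distal chromosome 15 locus KO lies above WT in the 20.6 kb interval that follows the main one.

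Chromosome 10 and the distal chromosome 17 locus had smaller ratios of WT to KO. On chromosome 10, chr10:69995898-70031732 had 488 and 461 CPM in WT P8 against 88.7 and 83.3 CPM in KO P8, and 13.0 and 16.2 CPM in WT and KO P0. KO P8 was thus between P0 and WT P8, 5.51-fold below the latter (95% counting interval 5.10 to 5.99). Of its reads, 98.1% in WT P8 and 96.1% in KO P8 lay in a nested 22.6 kb interval. At a distance of 43.3 kb, chr10:69930395-69952576 had the same order. Its levels were 71.9 and 71.0 CPM in WT P8 against 17.9 and 21.0 CPM in KO P8, and 8.31 and 5.69 CPM in WT and KO P0.

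At the distal chromosome 17 locus, short and long members differed. The 3.21 kb interval chr17:66516159-66519369 had 113 and 163 CPM in WT P8 against 7.21 and 4.75 CPM in KO P8, and 0.797 and 1.03 CPM in WT and KO P0. The 54.0 kb interval chr17:66529665-66583663 had 133 and 143 CPM in WT P8 against 26.3 and 30.5 CPM in KO P8, and 64.5 and 46.7 CPM in WT and KO P0. One nested stretch of it, chr17:66540467-66551761, held 58.2% of its reads in WT P0, 58.3% in KO P0, 20.8% in WT P8 and 52.2% in KO P8. In that stretch WT P8 was 1.94-fold above KO P8. In the remaining 42704 bp, WT P8 had 106 and 112 CPM and KO P8 14.9 and 12.3 CPM, an 8.04-fold difference, with 27.0 and 19.5 CPM in WT and KO P0. The excess of WT over KO at P8 was thus larger outside the stretch that held most of the P0 reads.

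At P0, in libraries that played no part in choosing the windows, the genotypes were close. With 1 library per genotype there is no test, and the intervals below cover counting error only. The summed level was 1.24-fold higher in WT (95% counting interval 1.17 to 1.31). The ratio of WT to KO was 1.56 (1.27 to 1.91) at the distal chromosome 15 locus, 1.33 (1.16 to 1.54) at the distal and 1.32 (1.22 to 1.44) at the proximal chromosome 17 locus. In the remaining 6 loci it was between 0.683 and 1.38, and the counting interval included 1. On chromosomes 2, 6 and 12 these intervals were wide, because the windows had 102, 44 and 30 reads in WT P0. At the proximal chromosome 17 locus the difference came from the 21.9 kb interval, at 1.62 (1.45 to 1.81), while its neighbour at chr17:27560631-27569424 had 1.05 (0.836 to 1.31).

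Of the 25 members with at least 20 reads in the 2 P0 libraries together, 1 was at least 2-fold lower in KO, where 7.64% of all 30901 such intervals were, and 1 at least 2-fold higher, against 10.9%. Named after their values were seen, these were chr15:59186987-59192152, 2.34-fold lower (1.24 to 4.71), and chr10:69956454-69978701, 3.20-fold higher (1.38 to 8.03, from 9 and 19 reads). The median log2 ratio of KO to WT was -0.06 in the members and -0.05 over all intervals.

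**Figure D3:**
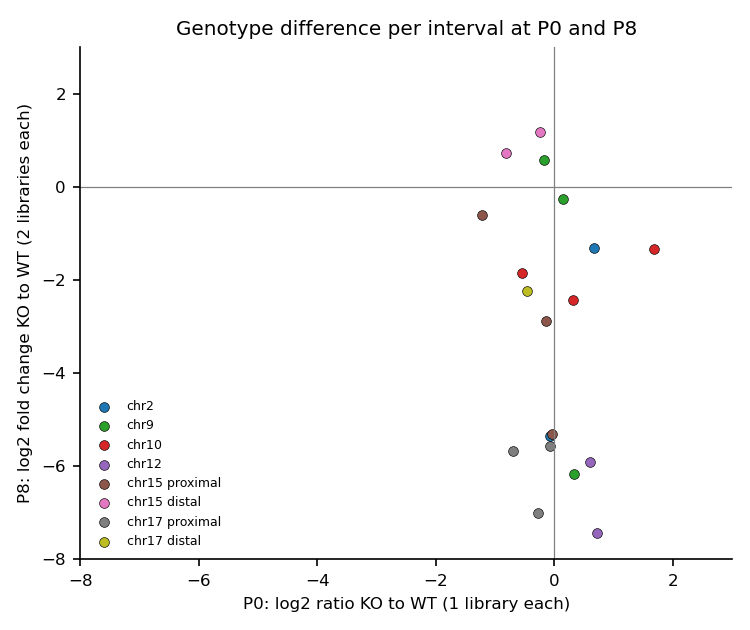
Log2 ratio of KO to WT at P0 (horizontal, 1 library each) and log2 fold change at P8 (vertical, 2 libraries each) for the 19 members with at least 20 P0 reads that passed the P8 filter, coloured by locus. Values run from -1.22 to 1.68 at P0 and from -7.43 to 1.16 at P8, where 14 of the 19 are below -1.

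The ratio of P8 to P0 was large in WT at all 9 loci and below 2 at 6 of them in KO. Both comparisons use the P8 libraries on which the windows were chosen, and age goes with the cell preparation. In WT the mean level at P8 was 84.4 times that at P0 on chromosome 6, 77.9 times on chromosome 12, 42.9 times on chromosome 2 and 38.9 times at the proximal chromosome 17 locus. It was 22.6 times on chromosome 10, 21.7 times on chromosome 9 and 17.1 times at the proximal chromosome 15 locus. It was 9.74 times at the distal chromosome 15 and 4.61 times at the distal chromosome 17 locus. Over all intervals the median log2 change in WT was -0.47. Of the 81 members, 13 had 0 reads in both P0 libraries. At P8, 14 had 0 reads in WT and 20 in KO, of which 12 had 0 reads in both genotypes.

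In KO the P8 level was 9.11 times that of P0 at the distal chromosome 15 locus, 4.35 times on chromosome 10 and 4.17 times on chromosome 6. It was 1.82 times on chromosome 9, 1.55 times on chromosome 2 and 1.30 times on chromosome 12. It was 0.879 times at the proximal chromosome 17 locus, 0.871 times at the proximal chromosome 15 locus and 0.741 times at the distal chromosome 17 locus. Over all intervals the median log2 change in KO was -0.27. When scaled by total counts instead, that median was -0.96, and the ratio fell below 1 on chromosomes 2 (0.960) and 12 (0.805), while the other 7 kept their direction. The same scaling left all 9 loci higher at P8 in WT, by 2.73-fold or more, with a median log2 change over all intervals of -1.23.

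In edgeR's quasi-likelihood test of age over 37627 intervals, with Benjamini-Hochberg adjustment and a threshold of 0.05, 56 members passed the filter. In WT 45 were called higher at P8, against 29.5% of all intervals, and 2 lower, against 38.5%. In KO 15 were called higher, against 26.4%, and 7 lower, against 31.3%, so that the members' share of higher calls in KO was near that of all intervals. Members that passed the filter through WT P8 alone were bound to differ in WT, and these counts are a description. The spread of the single P0 libraries was taken from the P8 pairs.

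The make-up of the set differed between groups. The proximal chromosome 17 locus gave 48.6% and 45.5% of the set in WT and KO P0, 68.9% and 67.5% in WT P8, compared with 20.6% and 21.4% in KO P8. The distal chromosome 15 locus gave 9.17% and 7.28% in WT and KO P0, 3.30% and 3.13% in WT P8, compared with 34.6% and 35.1% in KO P8. Chromosome 10 gave 6.33% and 8.24% at P0, 5.50% and 4.81% in WT P8, compared with 19.1% and 18.6% in KO P8. The 2 libraries of each P8 group had nearly the same make-up, and KO P8 differed from WT P8 and from both P0 libraries.

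**Figure D4:**
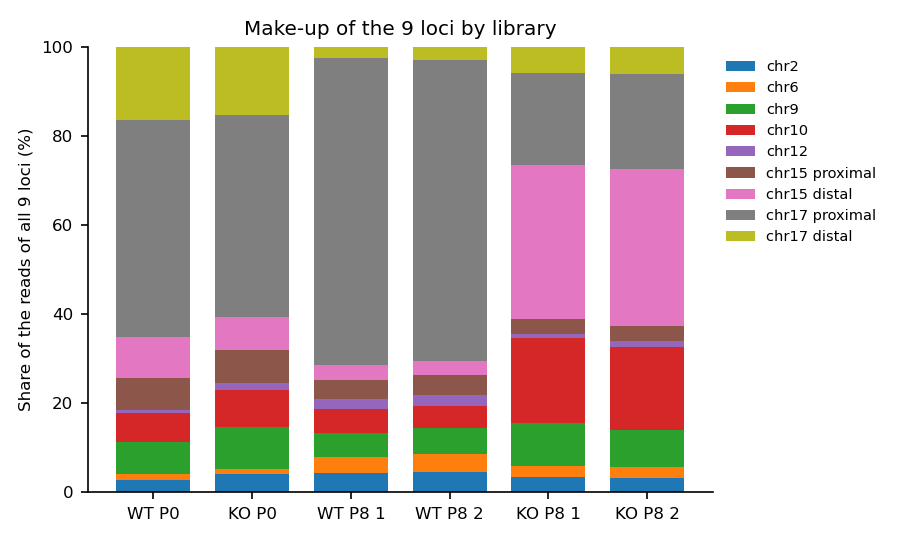
Share of each locus in the reads of all 9 loci, 1 bar per library. The proximal chromosome 17 locus takes 67.5% to 68.9% in WT P8 and 20.6% to 21.4% in KO P8, where the distal chromosome 15 locus takes 34.6% to 35.1%.

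Windows of the same width directly before and after each locus gave a local comparison, and the difference between loci and surroundings was not tested. Their 155 non-overlapping intervals summed to 1861 and 1768 CPM in WT P8 against 2440 and 2421 CPM in KO P8, and 2432 and 1633 CPM in WT and KO P0. Summed over these windows KO P8 was 1.34-fold above WT P8, and inside the loci it was 18.1-fold below. Because the loci were chosen on this P8 difference, a contrast with their surroundings follows from the choice and supports nothing here. KO was above WT in 11 of the 18 flanking windows and below in 7. Most of the summed difference lay in 1 of them, the window after the proximal chromosome 17 locus, with 776 and 729 CPM in WT P8 against 1195 and 1215 CPM in KO P8. Of the 56 flanking intervals that passed the P8 filter, 9 were called lower, against 20.1% of all tested intervals, and 19 higher, against 22.5%. The lowest flanking ratio was in the window before the chromosome 6 locus, with 38.5 and 39.6 CPM in WT P8 against 9.69 and 11.3 CPM in KO P8.

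**Figure D5:**
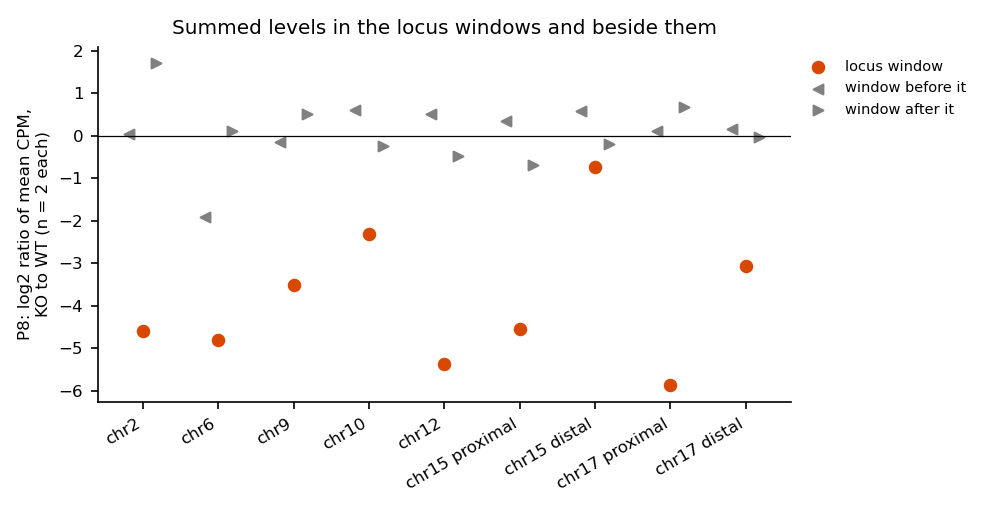
Log2 ratio of mean CPM in KO to WT at P8 (n = 2 each) for the 9 locus windows (circles) and for windows of the same width before and after each (triangles). The circles lie below 0 in all 9 loci, and 17 of the 18 flanking windows lie above -1.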

How the data were processed

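The authors deposited raw read counts per genomic interval for 6 small RNA libraries. The submitters' processing notes name GRCm39, TopHat2 2.1.1 and Bowtie 1.1.1, bedtools, cutadapt 1.13 and FastQC 0.10.1, without their order. Those notes do not say how multiply mapping reads were treated. Multiply mapping reads could move counts between repeated intervals. The deposited intervals overlap, so 1 read can be counted in several. Intervals were therefore taken from most reads to fewest, keeping those that overlapped none already kept. A second deposited table, of normalized values, was not used.

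TMM factors and quasi-likelihood fits (Benjamini-Hochberg threshold 0.05) came from edgeR 4.0.16 in R 4.3.3, over all non-overlapping intervals that passed its filter for low counts. The P8 fit used the 4 P8 libraries and the age fits all 6. Where a ratio is given with a 95% counting interval, this is an exact conditional binomial interval on the pooled reads of each group. The ratio beside it is one of mean CPM. The scripts were tested on simulated data. Alternatives were total counts, DESeq2 1.42.0, no filter, other ways to choose non-overlapping intervals, every deposited interval, a replicate block, leaving out each P8 library and, added after seeing the data, leaving out the proximal chromosome 17 locus. Members, lists and windows were chosen with earlier results of these data known. The intervals named were, by rule, the one with most reads in each window and the 3 lowest and 3 highest P8 fold changes among those with a mean of at least 10 CPM. Marker microRNAs could not be located without a GRCm39 annotation.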

Additional observations from a re-analysis of the deposited data

Results flagged for a closer look

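The interval chr15:74583062-74595875, at the distal chromosome 15 locus, differed between genotypes in opposite directions at the 2 ages. At P0 the WT level of 27.3 CPM was 1.76-fold above the KO level of 15.5 CPM (95% counting interval 1.38 to 2.27). At P8 the KO levels of 40.8 and 36.8 CPM were 1.61-fold above the WT levels of 24.7 and 23.6 CPM. The difference between the ages was not tested, P0 has 1 library per genotype, and age cannot be told apart from the cell preparation.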

How the results depend on the processing

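All values here are log2 ratios or counts of member intervals. The summed level kept its direction in all 4 comparisons under every setting run. KO against WT at P8 was -4.17, and -3.97 with the longest intervals taken first. At P0 it was -0.31, with -0.42 under total counts and -0.19 with the longest first. P8 against P0 in WT was 4.80, with 4.04 under total counts and 4.68 under DESeq2 size factors. P8 against P0 in KO was 0.93, with 0.24 under total counts, 0.76 under DESeq2 size factors, 1.1 with the longest first and 0.88 with the largest sum of reads per locus. Without the proximal chromosome 17 locus, a setting chosen after seeing the data, these 4 values were -2.86, -0.22, 4.11 and 1.46. The median of the 9 loci at P8 was -4.54, with -4.21 with the longest first and -4.16 with the largest sum. Using every deposited interval, 225 of 344 members were called lower in KO at P8 (41 of 47 otherwise). With age, 280 of 480 were called higher in WT (45 of 56) and 130 of 480 in KO (15 of 56). Overlapping intervals share reads in this setting. For this setting and those below, shares called over all intervals are not given, and nothing is read from the counts of members. Leaving out each P8 library in turn gave -4.23 to -4.11 and 42 to 43 members at P8, 4.74 to 4.85 and 40 to 45 members for age in WT, 0.92 to 0.94 and 11 to 18 members for age in KO, and a locus median of -4.66 to -4.42. In the P8 libraries the replicate block gave -4.17 and 41 members. The labels give the libraries only a shared number, and the deviations of same-numbered libraries correlated at 0.26 over 13087 intervals. Depth limits the P0 ratios, since 13 members had 0 reads at P0, and so does having 1 library per genotype.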
